A study of Mus musculus with 5 samples.

Results

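Mitochondrial ribosomal protein genes are described here in whole mouse embryos at gestation day 9.5 that lack or carry Folr1, which encodes a folate receptor that brings folate into cells. The members are the genes with a probe set that names them alone and whose symbol begins with Mrpl or Mrps and a number. They came to 74 of 12393 genes on the array, 47 of the large subunit (Mrpl) and 27 of the small subunit (Mrps). Each gene was read from its probe set with the highest mean level, and the 74 genes had 127 probe sets in all.

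The comparison was between 2 Folr1-/- and 3 Folr1+/+ arrays, each labelled a separate biological replicate of the C57BL6J strain. The Folr1-/- embryos came from Folr1+/- females, fed added folate for weeks before mating and through gestation, and Folr1+/- males. The labels do not give the diet behind the Folr1+/+ embryos on its own, so if it was another diet, its effect and that of genotype cannot be told apart. They also do not give the number of embryos per array. Decidua, chorion and amnion were removed, and the yolk sac is not mentioned. The labels name no tissue-specific driver for the deletion. The p-values measure the spread between these arrays. In whole embryos, fewer cells of a type and less RNA per cell cannot be told apart.

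Mitochondria make the few proteins encoded by their own DNA on a ribosome of their own. Its RNAs come from mitochondrial DNA, while all of its proteins are encoded in the nucleus, made in the cytosol and imported. The small subunit decodes the messenger RNA, and the large subunit joins amino acids and guides the new chain to the inner membrane, where it enters the respiratory chain. Some of these proteins belong to families shared with bacterial ribosomes, and others have no bacterial counterpart.

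The arrays resembled each other more within groups than between them, with correlations over the 7436 tested genes of 0.971 to 0.982 within groups and 0.926 to 0.949 between them. Folr1 itself had signals of 50.2 and 41.8 in Folr1-/- embryos, against 57.0, 50.01 and 40.2 in Folr1+/+ embryos. These values overlap. The labels do not say what the allele lacks of Folr1, so its signal is no test of the genotypes, which are taken from the labels. Markers of other tissues differed between the same arrays. All 17 tested markers of visceral endoderm, yolk sac and early liver were called higher, and their summed signal was 20068 to 20477 in Folr1-/- embryos, against 3295 to 4441 in Folr1+/+ embryos. Of 7 tested markers of primitive red cells 6 were called lower, with sums over the 10 on the array of 212 to 621 in Folr1-/- embryos, against 5418 to 6359 in Folr1+/+ embryos. Of 10 tested neural progenitor markers 9 were called lower, and the sums over 12 were 529 to 655 in Folr1-/- embryos, against 1753 to 1788 in Folr1+/+ embryos. All 3 tested genes listed as markers of trophoblast and decidua were called higher, although decidua and chorion are listed as removed. Sums over the 5 on the array were 433 to 551 in Folr1-/- embryos, against 181 to 200.2 in Folr1+/+ embryos. Hand1, 1 of the 3 tested, is not particular to these tissues. Of these 3, Hand1 and Prl8a2 lost their calls without Folr1-/- replicate 1 and with no filter on dim genes (limma adjusted p = 0.061 and 0.096 with no filter). Hand1 also lost its call with probe sets averaged (0.41; limma adjusted p = 0.14). Prl8a2 had signals of 143 and 34.6 in Folr1-/- embryos, against at most 23.2 in Folr1+/+ embryos. All 5 tested somite markers were called lower, with sums over 9 of 221 to 289 in Folr1-/- embryos, against 709.9 to 892 in Folr1+/+ embryos. Of 11 cardiac muscle markers 5 were called lower and 1 higher, with sums of 4687 to 5065 in Folr1-/- embryos, against 6974 to 7570.1 in Folr1+/+ embryos. Some markers of these lists were dim, with lowest signals on any array of 0.297 (somite), 0.828 (neural progenitor) and 1.96 (trophoblast and decidua). The sex-linked Xist was at 419 and 770.4 in Folr1-/- embryos, against at most 35.7 in Folr1+/+ embryos. The Y-linked Kdm5d was at 25.2 and 0.796 in Folr1-/- embryos, against 89.5 to 120.5 in Folr1+/+ embryos. Folr1-/- replicate 1 carried both Xist and Y-linked signal. The part of these tissue and sex differences in the values below was not tested.

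Of the 74 mitochondrial ribosomal genes 5 rose in Folr1-/- embryos, 0 fell and 69 did not pass the threshold, an adjusted p of 0.05 over all tested genes (limma with Benjamini-Hochberg adjustment). That is 6.76% of the members called higher, where 8.19% of all 7436 tested genes were called higher, and 0% called lower, where 6.79% of all were. At an unadjusted p under 0.05, 11 members were higher and 1 lower. Of all 7436 tested genes 1114 were higher and 1116 lower at that cut-off. The share of members called higher was thus near that of all genes. The 5 genes that rose, Mrpl18, Mrpl22, Mrpl27, Mrpl19 and Mrpl17, all encode proteins of the large subunit that have bacterial counterparts. All 74 members were bright enough to be tested, so none was lost to the filter on dim genes.

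**Figure D1:**
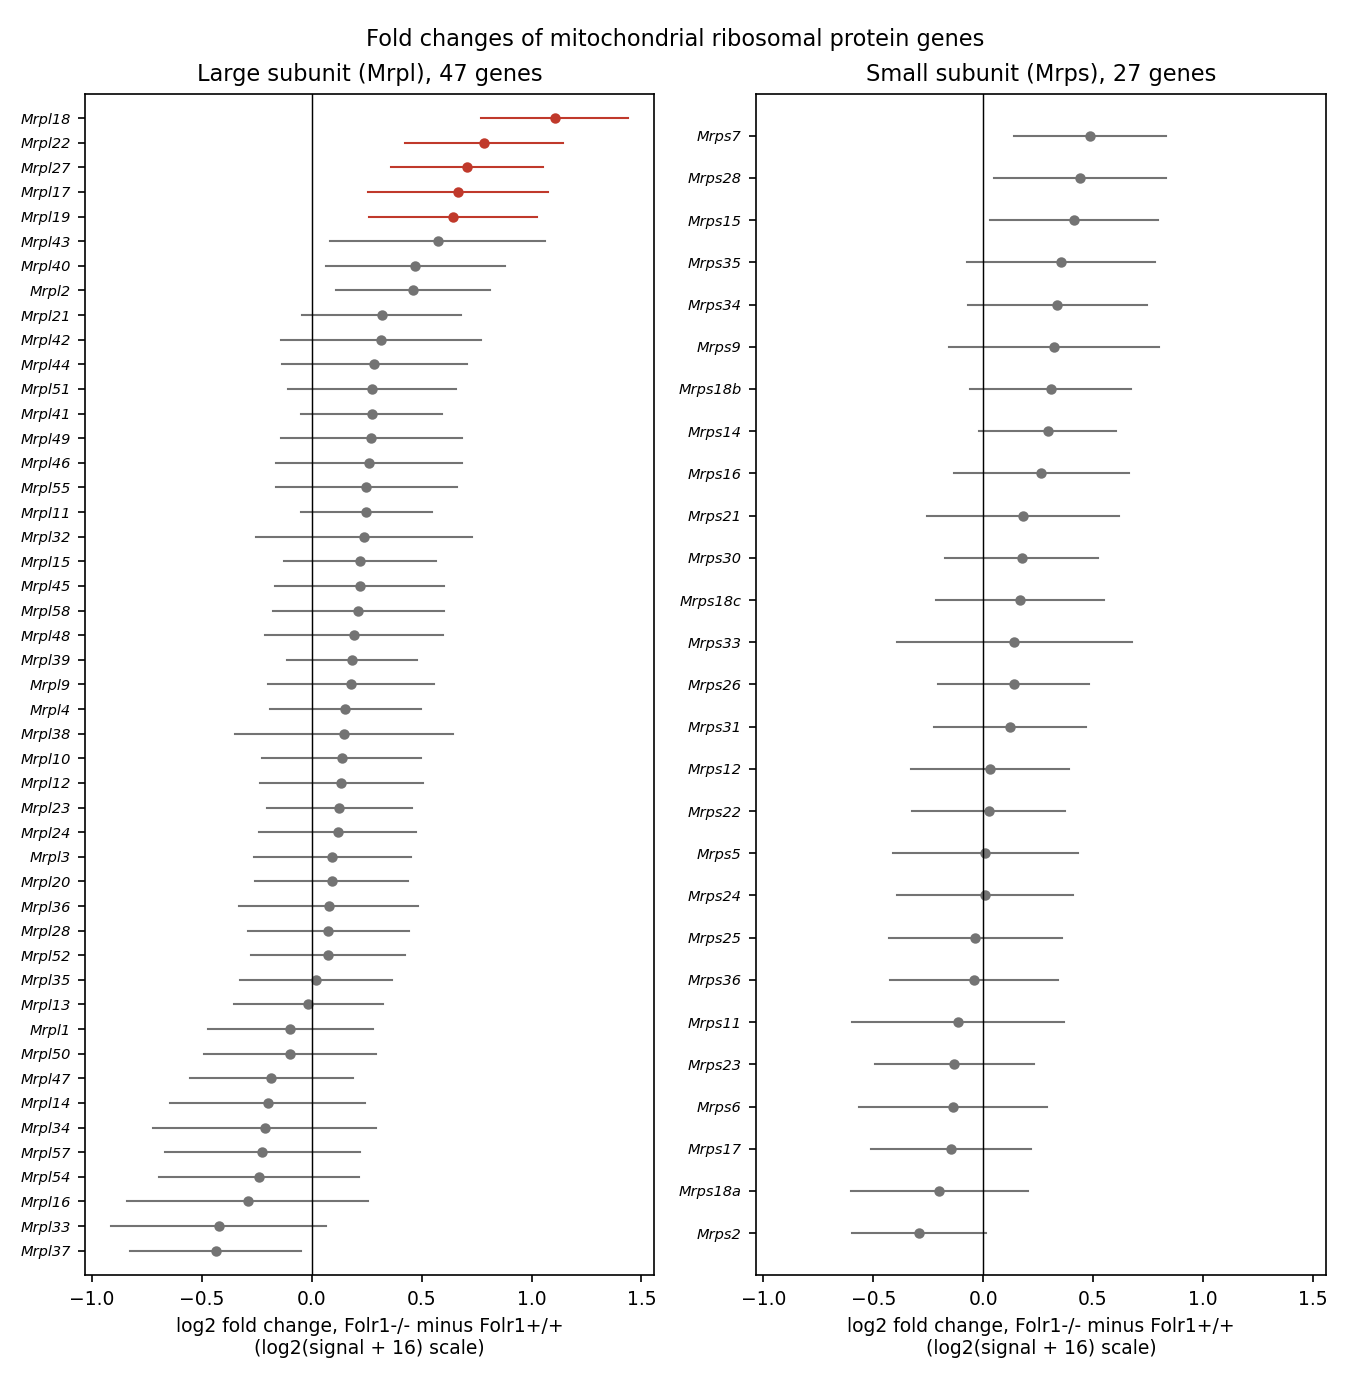
Log2 fold change of each mitochondrial ribosomal gene, Folr1-/- minus Folr1+/+ on the log2(signal + 16) scale, with its 95% confidence interval from limma, in the large subunit (left panel, 47 genes) and the small subunit (right panel, 27 genes). Red marks the 5 genes past the adjusted p threshold, all of them in the large subunit, and grey the 69 others, of which Mrpl37 is lowest at -0.44.

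Mrpl18 changed most. Its protein belongs to the family that in bacteria binds the 5S ribosomal RNA in the central protuberance, the crest of the large subunit. Its gene lies on chromosome 17. The signal was 359.9 and 367 in Folr1-/- embryos, against 163, 163 and 154 in Folr1+/+ embryos. Replicates lay close together, and the groups stood far apart, with means of 363 ± 4.73 (SD, n = 2) in Folr1-/- embryos and 160.2 ± 5.17 (SD, n = 3) in Folr1+/+ embryos. The log2 fold change was 1.11 ± 0.15 (SE; limma adjusted p = 0.00061).

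Mrpl22 and Mrpl27, both on chromosome 11, came next. Mrpl22, whose bacterial counterpart lines the tunnel through which the new protein leaves, had signals of 294 and 299 in Folr1-/- embryos, against 186, 147 and 166 in Folr1+/+ embryos. Every Folr1-/- value was above every Folr1+/+ value, and the log2 fold change was 0.78 ± 0.16 (SE; limma adjusted p = 0.0080). Mrpl27, of a family that reaches the peptidyl transferase centre where the peptide bond is made, had signals of 309 and 281 in Folr1-/- embryos, against 175, 164 and 185 in Folr1+/+ embryos. The groups again did not overlap, with a log2 fold change of 0.71 ± 0.16 (SE; limma adjusted p = 0.011).

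Mrpl19 and Mrpl17 rose by less. Mrpl19, of a family at the interface of the subunits in bacteria, lies on chromosome 6 and had signals of 178 and 182 in Folr1-/- embryos, against 118, 93.4 and 119.5 in Folr1+/+ embryos (log2 fold change 0.64 ± 0.18, SE; limma adjusted p = 0.030). Mrpl17, of a family near the mouth of the exit tunnel in bacteria, lies on chromosome 7 and had signals of 292 and 289.7 in Folr1-/- embryos, against 208, 138 and 193 in Folr1+/+ embryos (0.67 ± 0.19, SE; limma adjusted p = 0.033). In both genes Folr1+/+ replicate 2 was the lowest array.

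The number of calls rested on few arrays and on the processing. With probe sets averaged per gene Mrpl17 had a log2 fold change of 0.34 (limma adjusted p = 0.16) and Mrpl19 one of 0.48 (0.092), and with no filter on dim genes their adjusted p was 0.074 and 0.064, so both calls were lost in either fit. Without Folr1-/- replicate 1 Mrpl18 alone was called, without Folr1-/- replicate 2 Mrpl18 and Mrpl27, and without Folr1+/+ replicate 2 or Folr1+/+ replicate 3 Mrpl18, Mrpl22 and Mrpl27. Mrpl18 was called in all 16 alternative fits, with a log2 fold change of 0.93 to 1.20.

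Further probe sets of the genes that rose were dim. Mrpl18, Mrpl22 and Mrpl27 had 1 probe set each. A dimmer probe set of Mrpl19 had signals of 32.9 and 47.1 in Folr1-/- embryos, against 28.5, 14.1 and 19.0 in Folr1+/+ embryos, a log2 difference of 0.62 with groups that did not overlap. Its other one was at 6.70 or less on every array. The other probe set of Mrpl17 had 18.7 and 15.6 in Folr1-/- embryos, against 18.1, 18.1 and 14.2 in Folr1+/+ embryos, which overlap. Over all members, 33 genes had further probe sets, 53 in number, and 35 of these had the sign of the probe set used.

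**Figure D2:**
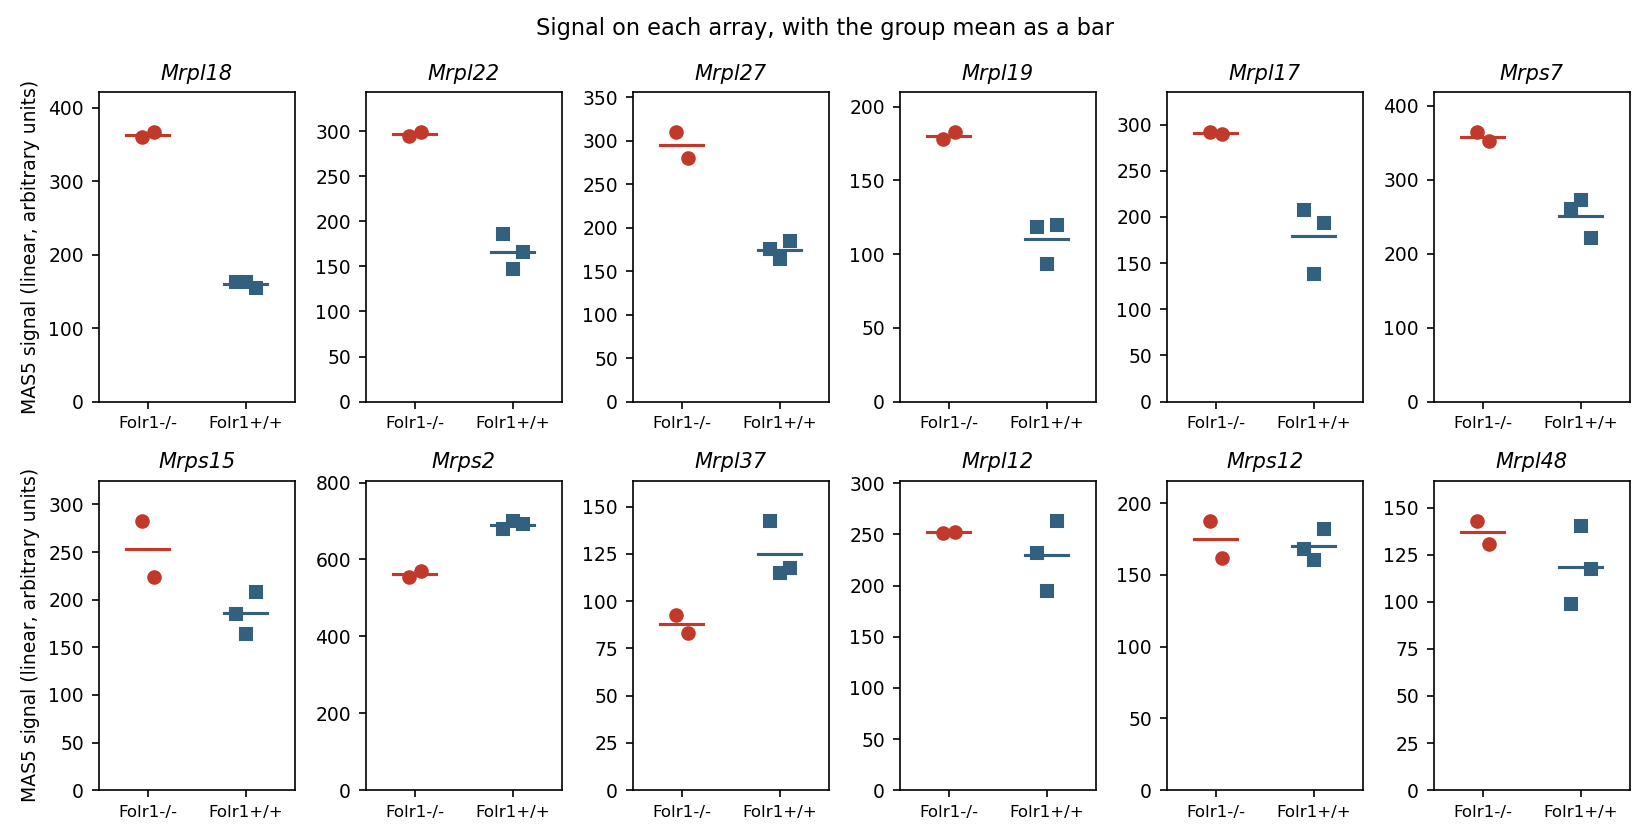
MAS5 signal (linear, arbitrary units, axis from 0) of 12 mitochondrial ribosomal genes on each array, with Folr1-/- arrays as red circles, Folr1+/+ arrays as blue squares and group means as bars. The 5 genes that rose and Mrps7 and Mrps15 show every Folr1-/- array above every Folr1+/+ array, Mrps2 and Mrpl37 the opposite, and Mrpl12, Mrps12 and Mrpl48 overlap.

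Promoter sequences of the genes that rose are shown because NRF1 and the ETS family factor GABP are known regulators of nuclear genes for mitochondrial proteins. They come from RefSeq (GRCm38.p6), 250 bases before to 50 after the annotated start, 5′ to 3′ on the gene's strand. Capitals mark the letters CCGGAAG (ETS family) and GCGCATGCG (NRF1) on either strand. The promoter of Mrpl18 followed from the rule for naming genes, those of Mrpl22, Mrpl27 and Mrpl17 were added after their values were seen, and no window was found for Mrpl19. Mrps18b, a small subunit gene with both motifs that did not pass the threshold (0.31 ± 0.17, SE; limma adjusted p = 0.24), stands beside them. Its promoter fell outside the rule, and it was the 1 of 25 small subunit windows with the NRF1 letters.
Mrpl18 (chr17:12916042-12916341, minus strand): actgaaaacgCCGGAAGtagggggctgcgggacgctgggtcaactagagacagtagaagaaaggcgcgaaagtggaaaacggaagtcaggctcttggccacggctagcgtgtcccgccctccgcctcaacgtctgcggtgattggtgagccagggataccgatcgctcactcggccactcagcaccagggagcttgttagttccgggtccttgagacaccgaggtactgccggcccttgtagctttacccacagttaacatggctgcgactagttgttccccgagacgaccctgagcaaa
Mrpl22 (chr11:58171414-58171713, plus strand): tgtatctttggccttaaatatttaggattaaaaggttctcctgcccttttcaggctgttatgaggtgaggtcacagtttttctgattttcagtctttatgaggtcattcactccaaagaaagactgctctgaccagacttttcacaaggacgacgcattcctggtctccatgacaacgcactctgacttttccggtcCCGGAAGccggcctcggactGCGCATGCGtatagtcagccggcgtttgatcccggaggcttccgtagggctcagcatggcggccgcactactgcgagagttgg
Mrpl27 (chr11:94653541-94653840, plus strand): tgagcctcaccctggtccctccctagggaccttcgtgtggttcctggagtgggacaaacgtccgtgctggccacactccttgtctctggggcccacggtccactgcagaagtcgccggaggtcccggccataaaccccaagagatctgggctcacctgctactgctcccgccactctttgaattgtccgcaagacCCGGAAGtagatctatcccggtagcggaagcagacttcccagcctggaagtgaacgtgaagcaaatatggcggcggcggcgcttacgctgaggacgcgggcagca
Mrpl17 (chr7:105811038-105811337, minus strand): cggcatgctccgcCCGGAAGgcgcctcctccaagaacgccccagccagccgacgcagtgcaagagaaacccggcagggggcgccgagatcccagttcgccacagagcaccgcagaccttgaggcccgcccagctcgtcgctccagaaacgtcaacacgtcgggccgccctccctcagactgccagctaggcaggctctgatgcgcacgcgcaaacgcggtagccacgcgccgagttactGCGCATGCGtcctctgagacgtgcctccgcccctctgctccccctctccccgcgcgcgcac
Mrps18b (chr17:35916391-35916690, minus strand): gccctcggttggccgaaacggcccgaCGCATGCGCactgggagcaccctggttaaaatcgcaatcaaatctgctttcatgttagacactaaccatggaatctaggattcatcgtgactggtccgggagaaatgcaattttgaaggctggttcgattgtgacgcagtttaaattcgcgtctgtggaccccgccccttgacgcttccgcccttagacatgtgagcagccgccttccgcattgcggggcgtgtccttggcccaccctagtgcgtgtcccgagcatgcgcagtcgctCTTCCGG

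The ETS letters stood once in each of the 5 windows, and the NRF1 letters in those of Mrpl22, Mrpl17 and Mrps18b. Of the 71 promoter windows of 65 members, 24 (33.8%) held CCGGAAG, where 8.86% of all 32851 windows and 18.9% of those of tested genes did. GCGCATGCG was in 7 member windows (9.86%), where 1.75% of all windows and 3.92% of those of tested genes held it. AAGATGGCG, the letters searched for YY1, was also in 7 (9.86%), where 1.4% of all windows and 3.3% of those of tested genes held it. The 24 members with CCGGAAG had a median log2 fold change of 0.18 and held 4 of the genes that rose, and the 41 without it had a median of 0.12 and held 0. The 7 members with GCGCATGCG had a median of 0.24 and held 2 of the genes that rose, and the 58 without it had a median of 0.12 and held 2. For AAGATGGCG the order of the medians was the opposite, with 0.0094 and 0 genes that rose in the 7 members with it, and 0.17 and 4 in the 58 without it. The letters of CCGGAAG and GCGCATGCG can each overlap AAGATGGCG at an end. A match is a run of letters, and no binding was measured. Of all tested genes, whatever their letters, 8.19% were called higher. That share was not split by letters, and whether members with and without a match differ was not tested.

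Some of these genes start back to back with a neighbour on the other strand. Mrpl18 starts beside Tcp1, which encodes a subunit of the cytosolic chaperonin. Tcp1 had signals of 6081 and 5399.6 in Folr1-/- embryos, against 6507, 8599 and 5934 in Folr1+/+ embryos, with a log2 fold change of -0.27 ± 0.17 (SE; limma adjusted p = 0.30). Mrpl27 starts beside Eme1, a subunit of a DNA endonuclease, which had 232 and 227 in Folr1-/- embryos, against 284, 249 and 278 in Folr1+/+ embryos (-0.22 ± 0.15, SE; limma adjusted p = 0.37). In both pairs the Mrpl gene was called higher while the neighbour had a value below 0 that did not pass. Of 21 members with such a neighbour 11 had one that was tested, with Mrpl46 and Mrps11 counted as each other's neighbour. Of those 11 neighbours 2 were called higher and 0 lower, where 8.19% of all tested genes were called higher and 6.79% lower. They were Fau beside Mrpl49 (0.69) and the respiratory complex I gene Ndufb5 beside Mrpl47 (0.55), and neither Mrpl49 (0.27) nor Mrpl47 (-0.18) passed the threshold. The call of Ndufb5 was lost with probe sets averaged (0.35), with no filter, with quantile normalization and without any 1 array other than Folr1+/+ replicate 2 (limma adjusted p 0.057 to 0.18 over these fits), and that of Fau without Folr1-/- replicate 1 (0.077).

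Among the other large subunit genes, 3 higher and 1 lower had an unadjusted p under 0.05, the higher being Mrpl2, Mrpl43 and Mrpl40 and the lower Mrpl37. Mrpl2, of a core family at the peptidyl transferase centre, had signals of 461 and 420.2 in Folr1-/- embryos, against 354, 322 and 275 in Folr1+/+ embryos, with a log2 fold change of 0.46 ± 0.16 (SE; limma adjusted p = 0.076). Its groups did not overlap, and it was called with median centring (limma adjusted p = 0.046) and with array weights (0.040). Mrpl43 and Mrpl40, both without bacterial counterparts, had log2 fold changes of 0.57 ± 0.22 and 0.47 ± 0.19 (SE) and did not pass. On the lower side Mrpl37, a protein specific to mitochondria, had signals of 92.5 and 83.0 in Folr1-/- embryos, against 142, 115 and 117.5 in Folr1+/+ embryos (-0.44 ± 0.18, SE; limma adjusted p = 0.12). Mrpl33, Mrpl16, Mrpl54 and Mrpl57 followed, with log2 fold changes of -0.42, -0.29, -0.24 and -0.23, and none passed. Mrpl16 varied most by its SE (0.25), with signals of 774 and 591 in Folr1-/- embryos, against 933, 1121 and 549 in Folr1+/+ embryos.

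By their place in the large subunit, genes that rose stood beside genes that did not pass. Around the exit tunnel 2 of 8 genes rose, Mrpl17 and Mrpl22. Of large subunit genes 10.6% were called higher, and of all tested genes 8.19%. Mrpl45, which ties the ribosome to the inner membrane, had signals of 162 and 155 in Folr1-/- embryos, against 139.9, 151 and 113 in Folr1+/+ embryos (0.22 ± 0.18, SE). In the central protuberance 1 of 6 rose, Mrpl18, and all 6 had values above 0. A value above 0 was found in 76.6% of large subunit genes and 47.9% of all tested genes. At the peptidyl transferase centre and tRNA path 1 of 5 rose, Mrpl27. The 3 genes of the stalk, which recruits translation factors, gave no call. Among them Mrpl11 had signals of 1468 and 1372 in Folr1-/- embryos, against 1136, 1243 and 1203 in Folr1+/+ embryos, and a log2 fold change of 0.25 ± 0.14 (SE), and Mrpl12 had 0.13 ± 0.17 (SE). Other probe sets of Mrpl11 above the filter level had log2 differences of 0.17 and -0.007, and a dim one had -0.33. With probe sets averaged Mrpl11 had 0.020. The places of these genes were assigned after the values were seen, and whether they differ was not tested.

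Mrpl48, a central protuberance protein, is encoded near the targeted gene, on chromosome 7 with 17 protein-coding genes between it and Folr1 in the GRCm38.p6 gene order. It had signals of 143 and 131 in Folr1-/- embryos, against 98.8, 140.1 and 117 in Folr1+/+ embryos. The groups overlapped, and the log2 fold change was 0.19 ± 0.19 (SE; limma adjusted p = 0.52). Its other probe set, also above the filter level, had 132 and 135 in Folr1-/- embryos, against 65.5, 111 and 97.9 in Folr1+/+ embryos. There the groups did not overlap, with a log2 difference of 0.50. With probe sets averaged Mrpl48 had 0.35 and did not pass (limma adjusted p = 0.225).

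None of the 27 small subunit genes passed the threshold, and 3 had an unadjusted p under 0.05, all higher. Mrps7, of a family in the head of the subunit that in bacteria organises the 3′ part of the 16S RNA, came closest. Its signal was 364 and 352 in Folr1-/- embryos, against 261, 272 and 221 in Folr1+/+ embryos. The groups did not overlap, with a log2 fold change of 0.49 ± 0.16 (SE; limma adjusted p = 0.059), and with each array centred on its median or with array weights the gene was called (limma adjusted p = 0.032 and 0.029). Mrps28 had signals of 126 and 142 in Folr1-/- embryos, against 82.8, 106 and 96.5 in Folr1+/+ embryos (0.44 ± 0.18, SE; limma adjusted p = 0.12). Mrps15, of a platform family that binds ribosomal RNA early in assembly in bacteria, had 283 and 224 in Folr1-/- embryos, against 185, 164 and 208 in Folr1+/+ embryos (0.42 ± 0.18, SE; limma adjusted p = 0.14).

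Mrps14, another head protein, had signals of 1008 and 929 in Folr1-/- embryos, against 752, 759 and 853 in Folr1+/+ embryos, which do not overlap, and a log2 fold change of 0.29 ± 0.14 (SE; limma adjusted p = 0.19). Its other probe set, also above the filter level, had 68.7 and 104 in Folr1-/- embryos, against 90.2, 120 and 102 in Folr1+/+ embryos. These overlap, with a log2 difference of -0.24. With probe sets averaged Mrps14 had 0.026. The lowest value of the small subunit was that of Mrps2, with signals of 553 and 569 in Folr1-/- embryos, against 679, 700.4 and 693 in Folr1+/+ embryos. Its replicates lay within a narrow range and the groups did not overlap, but the gene did not pass (-0.29 ± 0.14, SE; limma adjusted p = 0.18). Mrps12, of the family that monitors codon pairing in the decoding centre, had signals of 188 and 162 in Folr1-/- embryos, against 168, 161 and 182 in Folr1+/+ embryos. These overlapped almost fully (0.03 ± 0.16, SE). Mrps17, Mrps6 and Mrps23 had log2 fold changes of -0.15, -0.14 and -0.13, and Mrps11, the dimmest member, had 26.1 and 30.0 in Folr1-/- embryos, against 24.9, 41.2 and 30.02 in Folr1+/+ embryos.

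The intervals limit how large an undetected change could be. In 68 of 74 members the 95% confidence interval of the log2 fold change lay between -1 and 1, the exceptions being the 5 genes that rose and Mrpl43. For all 27 small subunit genes it lay within that range. In 23 members it lay between -0.5 and 0.5.

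Most members leaned upward even where they did not pass. Of the 74, 55 had a log2 fold change above 0, and the median was 0.15, where 47.9% of all tested genes were above 0 and their median was -0.02. The groups did not overlap, with Folr1-/- higher, in 26 members (35.1%), where this held for 22.5% of all tested genes. They did not overlap with Folr1-/- lower in 3 members (4.05%: Mrpl37, Mrpl33 and Mrps2), where this held for 24.2% of all tested genes. The median of the members lay 0.17 above that of all tested genes, and 0.15 to 0.21 above it over the alternative fits. Centring each array on its median moves all genes alike and put the members at 0.24 and all tested genes at 0.07. With that centring 69.3% of all calls were higher, in place of 54.7%. Folr1-/- replicates 1 and 2 held the highest signal of 24 and 21 members, against 12, 11 and 6 for the Folr1+/+ replicates. The arrays with the highest and lowest signal were counted for members only, not for all tested genes. Folr1+/+ replicate 2 held the lowest signal of 29 members, and had the highest ratio of 3′ to 5′ signal of Actb, a measure of shortened RNA, at 39.5, where the other arrays had 21.1 to 30.5. With this ratio as a covariate the same 5 members were called.

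The medians of the fold changes of the large and small subunits differed by 0.038. The median was 0.18 over 47 large subunit genes and 0.14 over 27 small subunit genes, with quartiles of 0.05 and 0.27 for the large and -0.04 and 0.30 for the small subunit. Of the large subunit genes 36 had a value above 0 (76.6%), and of the small subunit genes 19 (70.4%). Groups did not overlap, with Folr1-/- higher, in 34.0% of the large and 37.0% of the small subunit genes, and in 22.5% of all tested genes. Calls were 5 of 47 (10.6%) in the large subunit and 0 of 27 (0%) in the small subunit, where 8.19% of all tested genes were called higher. Whether these shares differ was not tested.

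Set as a level on each array, the contrast depended on how it was summarised. The median log2(signal + 16) over large subunit genes minus that over small subunit genes was 0.39 and 0.36 in Folr1-/- embryos, against 0.10, 0.08 and 0.17 in Folr1+/+ embryos. The groups did not overlap, and the means of 0.37 ± 0.03 (SD, n = 2) in Folr1-/- embryos and 0.12 ± 0.04 (SD, n = 3) in Folr1+/+ embryos differed by 0.26. With means over genes in place of medians the contrast was 0.20 and 0.26 in Folr1-/- embryos, against 0.20, 0.17 and 0.16 in Folr1+/+ embryos, where the groups overlapped and differed by 0.057. With Mrps18a and Mrps30 counted as large and Mrps36 left out, the difference of medians was 0.17. A score over members carries no p here.

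**Figure D3:**
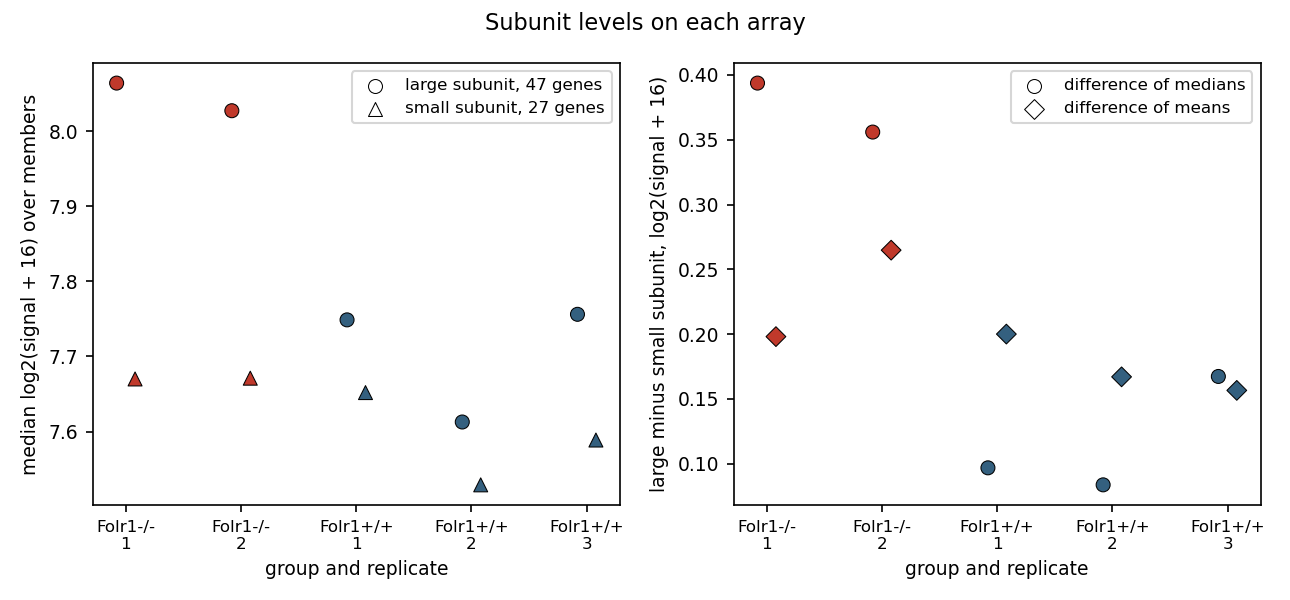
Left, median log2(signal + 16) over the 47 large subunit genes (circles) and 27 small subunit genes (triangles) on each array. Right, large minus small subunit on the same scale as a difference of medians (circles) and of means (diamonds), with Folr1-/- arrays red and Folr1+/+ arrays blue and axes that do not start at 0. The difference of medians separates the groups, at 0.36 to 0.39 against 0.08 to 0.17, and the difference of means does not.

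Names and structure part ways for a few Mrps genes. Mammalian structures place Mrps18a and Mrps30 in the large subunit, and Mrps36 belongs to the 2-oxoglutarate dehydrogenase complex. Mrps18a had signals of 119 and 98.8 in Folr1-/- embryos, against 138, 107 and 137.5 in Folr1+/+ embryos, overlapping groups with a log2 fold change of -0.20 ± 0.18 (SE). Its paralogues of the small subunit both had values above 0. Mrps18b had 388 and 299.5 in Folr1-/- embryos, against 293, 249 and 278 in Folr1+/+ embryos, and Mrps18c had 179 and 188 in Folr1-/- embryos, against 135, 176 and 177 in Folr1+/+ embryos. None of the 3 passed. Mrps30 had a log2 fold change of 0.18 ± 0.16 (SE) and Mrps36 of -0.04 ± 0.18 (SE).

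Genes listed under bacterial families and the other members were close in their medians. The others as listed include Mrps28, Mrps24 and Mrpl47, whose proteins do have bacterial relatives, so the split is approximate. In the large subunit the 27 genes listed under bacterial families had a median log2 fold change of 0.13 and held the 5 calls (18.5%). The 20 others had a median of 0.21 and 0 calls by limma (0%), with 2 higher and 1 lower at an unadjusted p under 0.05. Of all tested genes 8.19% were called higher. Whether the listed families differ from the others was not tested, and the calls of Mrpl17 and Mrpl19 were lost in several fits. In the small subunit the medians were 0.17 over 15 genes listed under bacterial families and 0.13 over 12 others, with 0 calls in each. At an unadjusted p under 0.05, 2 and 1 genes were higher, the 1 among the others being Mrps28.

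Other genes of mitochondrial translation gave no call in the fit reported. Of 4 mitoribosomal proteins listed under other symbols none passed, and Gadd45gip1 was highest, at 84.3 and 102.5 in Folr1-/- embryos, against 69.1, 57.4 and 53.6 in Folr1+/+ embryos (0.52 ± 0.19, SE; limma adjusted p = 0.088). Of 7 mitochondrial translation factors none passed (median -0.08), and Mtfmt, which formylates the initiator tRNA, had -0.55 ± 0.19 (SE; limma adjusted p = 0.075). Mtfmt was called lower with probe sets averaged (limma adjusted p = 0.047) and with no intensity trend (0.049). The 11 tested genes for tRNA synthetases had a median of 0.07 and the 21 for ribosome assembly and RNA processing one of 0.10, with 0 calls in each, also at an unadjusted p under 0.05. Among 11 genes for copying and transcribing mitochondrial DNA, 1 rose, the DNA polymerase gene Polg, with signals of 414 and 379 in Folr1-/- embryos, against 234 to 252 in Folr1+/+ embryos (0.68 ± 0.15, SE; limma adjusted p = 0.011). Polg lost its call without Folr1-/- replicate 1 (limma adjusted p = 0.11) or Folr1+/+ replicate 3 (0.050). Among 8 regulators of mitochondrial biogenesis 1 fell, Gabpa, which encodes the DNA-binding subunit of GABP, with signals of 212 and 206 in Folr1-/- embryos, against 288, 388 and 334 in Folr1+/+ embryos (-0.64 ± 0.17, SE; limma adjusted p = 0.024). That call was lost with its probe sets averaged (-0.31; limma adjusted p = 0.16), with no filter on dim genes (0.051) and on leaving out any array other than Folr1+/+ replicate 1 (0.065 to 0.13).

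Genes for mitochondrial import and the respiratory chain gave calls. Of 29 import and protease genes 5 rose and 0 fell (17.2% higher, median 0.17). They were Pam16 of the import motor at 1.11 ± 0.18 (SE), the inner membrane translocase genes Timm17b, Timm17a and Timm22 at 0.69 ± 0.16, 0.69 ± 0.15 and 0.63 ± 0.16, and the chaperonin gene Hspe1 at 0.50 ± 0.15. With probe sets averaged Timm17b (0.58), Timm22 (0.17) and Hspe1 (0.32) lost their calls (limma adjusted p = 0.067, 0.53 and 0.14), and without Folr1-/- replicate 1 these 3 and Timm17a did (limma adjusted p 0.10 to 0.20). Timm17b also lost its call without Folr1-/- replicate 2, Timm22 without Folr1+/+ replicate 2 or 3, and Hspe1 with no filter, with no intensity trend and without any array but Folr1+/+ replicate 1. Pam16 was called in all 16 alternative fits. Of 72 oxidative phosphorylation genes 14 rose and 1 fell (19.4% higher, median 0.27), the one that fell being Cox7c of complex IV (-0.76 ± 0.21), with the complex I genes Ndufa5 and Ndufb9 at 0.99 ± 0.16 and 0.80 ± 0.16 and the complex III gene Uqcr11 at 0.81 ± 0.20. Ndufa5 was called in all 16 alternative fits. Ndufb9 lost its call with probe sets averaged (0.28; limma adjusted p = 0.23) and without Folr1-/- replicate 1 (0.056). Uqcr11 lost its call with no filter (limma adjusted p = 0.061) and without Folr1+/+ replicate 1 (0.053), Folr1+/+ replicate 3 (0.058) or Folr1-/- replicate 2 (0.19). Cox7c lost its call with median centring (limma adjusted p = 0.051), with no filter (0.095) and without any array but Folr1+/+ replicate 1 (0.066 to 0.25). The 16 citric acid cycle genes had a median of 0.19 and 0 calls, and 4 were higher at an unadjusted p under 0.05. Proteins of the cytosolic ribosome, whose probe sets often share sequence with pseudogenes, had a median of -0.03 over 40 genes, with 0 higher and 1 lower, Rpl12 (-1.02 ± 0.20, SE; limma adjusted p = 0.0055), whose call was lost without Folr1-/- replicate 1 (-0.69; limma adjusted p = 0.086). Whether the mitochondrial ribosomal genes differ from these lists was not tested.

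**Figure D4:**
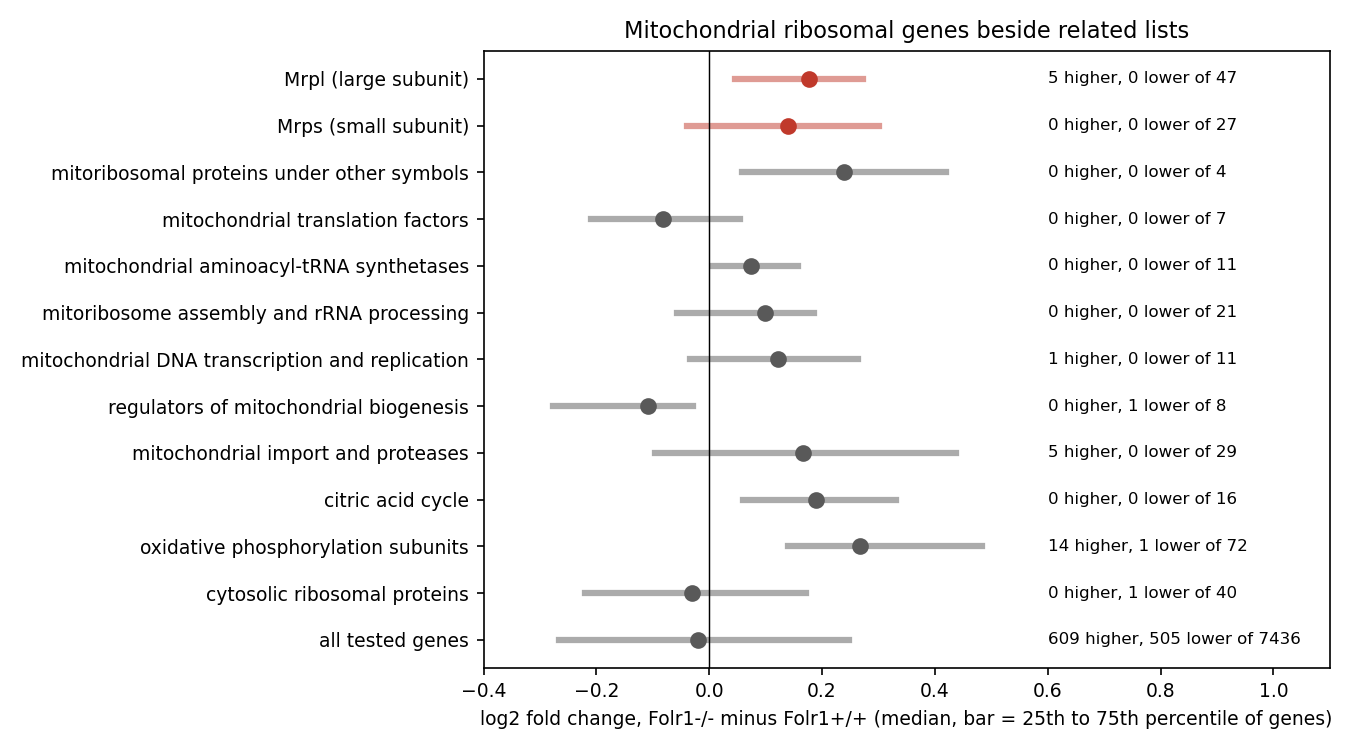
Median log2 fold change (dots, Folr1-/- minus Folr1+/+, log2(signal + 16) scale) and the 25th to 75th percentile of genes (bars) for the mitochondrial ribosomal genes in red and other lists in grey, with counts of calls at the right. The large and small subunits lie at 0.18 and 0.14, between cytosolic ribosomal proteins at -0.03 and oxidative phosphorylation at 0.27.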

How the data were processed

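The authors deposited linear signal intensities from MAS5 (per the submitters' processing notes, which name no version here), 1 per probe set and array. Trimmed array means were 150.06 to 150.07, and this scaling was kept. RNA was amplified over 2 rounds, per the labels' protocols, which favours 3′ ends. Without detection calls, background was not separated from dim signals, and the number of arrays limits the precision. Genes were named from the platform annotation. Of 22690 probe sets, 20380 had 1 symbol, and 2 member genes found only on probe sets with several symbols were left out. Of the probe sets used for members, 9 have names marking possible shared sequence. The filter removed 4957 of 12393 genes, those whose mean level lay below the 40th percentile. On the remaining log2(signal + 16) values, lmFit and eBayes (limma 3.58.1, R 4.3.3) were run with an intensity trend and 3 residual degrees of freedom, with Benjamini-Hochberg over 7436 genes and a threshold of 0.05. Fold changes are Folr1-/- minus Folr1+/+ on that scale and understate changes of dim genes. The code was tested on simulated arrays. Named genes were all members past the threshold, then the 5 with the smallest unadjusted p per subunit and direction, the brightest and dimmest member of each subunit, the Mrps18 paralogues, Mrps30, Mrps36, Mrpl48, and up to 3 genes per related list. Mrpl2, Mrpl12, Mrpl40, Mrpl43, Mrpl45, Mrpl47, Mrpl49, Mrps12, Folr1, Tcp1, Eme1, Fau, Ndufb5, Hspe1, Timm22 and Cox7c were chosen after their values were seen. The members and lists were chosen with earlier results of these data known.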

Additional observations from a re-analysis of the deposited data

How the results depend on the processing

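Mrpl18, Mrpl22, Mrpl27, Mrpl19 and Mrpl17 had log2 fold changes above 0 in all 16 alternative fits, and 0 members were called lower in any of them. The count of members called higher was 5 in the fit reported, 3 with no filter on dim genes or with probe sets averaged per gene (Mrpl17 and Mrpl19 lost in both), and 1 to 5 on leaving out 1 array at a time, while array weights and median centring gave 7 by adding Mrpl2 and Mrps7. All genes called came to 1114. The count was 369 to 1007 on leaving out 1 array, being 369 without Folr1-/- replicate 1, 664 without its replicate 2 and 636 in the absence of Folr1+/+ replicate 3. The large minus small subunit difference of medians, 0.26, was 0.21 with a pseudocount of 64, 0.12 with a 60th percentile filter, 0.11 with probe sets averaged per gene, 0.17 with subunits by structure and 0.24 to 0.28 on leaving out 1 array. In settings chosen after seeing the data it was 0.057 with means and 0.038 as a difference of median fold changes. Median centring moved the median fold changes to 0.27 (large) and 0.23 (small), and quantile normalization moved that of the small subunit to 0.083. Leaving out 1 array gave 0.13 to 0.19 for the large and 0.10 to 0.14 for the small subunit. The cause of these moves was not tested.

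Replicate numbers did not pair the arrays: deviations from the group means correlated at 0.02 for the arrays numbered 1 and -0.06 for those numbered 2. With the replicate number as a block, 4 members were called, Mrpl19 being lost (limma adjusted p = 0.051). Gabpa, Hspe1, Ndufb5 and Cox7c also lost their calls (0.050, 0.091, 0.16 and 0.082), as did Hand1 of the trophoblast and decidua list (0.064). With the block the median fold changes were 0.18 (large) and 0.12 (small), and all genes called came to 899.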
